A study of Mus musculus with 24 samples.

Results

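The genes described here are 42 of the 19074 genes named on the array, all genes of the endothelium, the cell layer that lines blood vessels, chosen by name as markers of all endothelial cells (25 genes), of capillary cells (7), of arterial cells (9) and of venous cells (1, Ephb4). The names were listed with earlier results of these data known, and a filter on measured detection then set which of them were followed. The arrays carried 69 probes for these genes among 45281 probes, and 36 of the 42 genes passed the filter on dim probes in each mouse strain, the same 36 in both. They were followed in 24 Illumina arrays of left ventricle RNA from male mice, in 8 groups of 3 arrays. In the strain Balb/C the groups were Bmx-deficient mice (labelled TK) given AngII, TK mice given saline, wild-type mice given AngII and wild-type mice given saline. In the strain C57Bl/6J they were Bmx-deficient mice (labelled KO) given AngII, KO mice given saline, wild-type mice given AngII and wild-type mice given saline. AngII is angiotensin II, a peptide hormone that raises blood pressure and enlarges the heart, and infusions lasted 2 weeks in every group. The saline infusion is called sham in the sample names. The sample labels do not say what TK and KO stand for, how old the mice were or whether the 3 arrays of a group came from separate animals. What the p-values reflect is array-to-array spread, which may be technical.

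Endothelial cells hold together through cadherin and claudin junctions. They respond to their surroundings through receptors such as TIE1 and TEK, which belong to the angiopoietin pathway. Arterial identity is kept by Notch signalling, in which the ligand DLL4 activates NOTCH1 and target genes such as Hey1 and Hey2, while capillary cells of the heart carry proteins for the handling of fatty acids and bicarbonate. Bmx encodes a tyrosine kinase found in the endothelium of arteries and the endocardium, and the study asked how its loss changes the growth of the heart under AngII.

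Median signals before normalization ranged from 95.3 to 110.2 in Balb/C and from 124.2 to 139.8 in C57Bl/6J, and replicate arrays correlated between 0.985 and 0.993. The strains came in separate tables and were normalized separately, so strain and table cannot be told apart and no level is compared between strains. Of 4 Bmx probes 1 passed the filter. Its log2 signal ranged from 5.78 to 6.04 in TK AngII, 5.60 to 5.80 in TK sham, 5.28 to 5.64 in wild-type AngII and 5.56 to 5.74 in wild-type sham ventricles of Balb/C. In C57Bl/6J it ranged from 6.02 to 6.62 in KO AngII, 5.99 to 6.21 in KO sham, 6.27 to 6.70 in wild-type AngII and 6.31 to 6.51 in wild-type sham ventricles. The TK AngII arrays lay above the wild-type AngII arrays (0.38 ± 0.14, adjusted p = 0.0889) and the KO sham arrays below the wild-type sham arrays (-0.32 ± 0.16, adjusted p = 0.783), and no genotype difference of this probe passed. Where it lies relative to the altered part of the gene is not given, so it does not check the labels. In C57Bl/6J the wild-type AngII arrays stood apart from the other groups in Wdfy1, which differed from sham by -1.82 (log2) there (adjusted p = 1.3e-05), against 0.34 in KO mice (adjusted p = 0.115). They also stood apart in Plac9a, with 2.42 in wild-type mice (adjusted p = 2.42e-05) against 0.04 in KO mice (adjusted p = 0.926).

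The labelled tissue was checked against muscle cell markers. Summed linear signals of 6 measured cardiomyocyte genes ranged from 69500 to 78700 over the Balb/C arrays and from 129000 to 141000 over the C57Bl/6J arrays. Of the 36 measured endothelial genes, 33 were detected on all 12 Balb/C arrays and 35 on all 12 C57Bl/6J arrays. In Balb/C the exceptions were Efnb2, Esm1 and Hey2, detected on 3, 8 and 9 of 12 arrays. All 36 had been kept for detection on 3 or more arrays of a strain. These counts therefore describe the kept genes and are no separate check of endothelial signal in this RNA. Egfl7, which encodes a secreted protein of the vessel wall, gave the highest mean log2 signal of the list in both strains, 12.31 in Balb/C and 12.61 in C57Bl/6J, and Esam, an endothelial adhesion molecule, came next with 11.55 and 11.56. The dimmest was Efnb2, the arterial ephrin ligand, with a mean of 4.57 in Balb/C, where it was detected on 3 of 12 arrays, and of 5.09 in C57Bl/6J, where it was detected on 7 of 12. Signals of different genes come from different probes, so this order describes brightness on the array and not abundance. No probe passed the filter in either strain for Clec14a, S1pr1, Calcrl, Erg, Fabp4 and Apln, and these 6 genes have no value below.

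Promoter sequences from RefSeq (assembly GRCm38.p6) were available for 23 of the 42 genes. The 250 bases before the transcription start are printed for 4 genes that fell under AngII in both Balb/C genotypes (Cldn5, Tie1, Tek and Robo4) and for Notch1, which rose in both, because ETS1, itself among the genes that fell in both, belongs to the ETS factors that bind the core letters GGAA. The motifs searched on both strands were AGGAAG and CCGGAA, and capitals mark a match (CTTCCT is AGGAAG on the opposite strand). The Cldn5 window is chr16:18776597-18776846 on the plus strand, that of Tie1 is chr4:118489850-118490099 on the minus strand, that of Tek is chr4:94739039-94739288 on the plus strand, that of Robo4 is chr9:37401722-37401971 on the plus strand and that of Notch1 is chr2:26503823-26504072 on the minus strand. All are written 5′ to 3′ along the gene.
Cldn5: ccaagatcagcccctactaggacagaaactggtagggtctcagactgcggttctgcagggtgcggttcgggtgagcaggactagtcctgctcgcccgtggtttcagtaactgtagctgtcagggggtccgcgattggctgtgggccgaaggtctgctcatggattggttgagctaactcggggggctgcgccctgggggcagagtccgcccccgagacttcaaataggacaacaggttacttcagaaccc
Tie1: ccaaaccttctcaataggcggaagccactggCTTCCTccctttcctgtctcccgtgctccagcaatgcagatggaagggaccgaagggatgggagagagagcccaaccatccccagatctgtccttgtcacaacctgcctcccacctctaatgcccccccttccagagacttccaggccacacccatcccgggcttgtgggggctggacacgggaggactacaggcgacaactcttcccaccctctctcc
Tek: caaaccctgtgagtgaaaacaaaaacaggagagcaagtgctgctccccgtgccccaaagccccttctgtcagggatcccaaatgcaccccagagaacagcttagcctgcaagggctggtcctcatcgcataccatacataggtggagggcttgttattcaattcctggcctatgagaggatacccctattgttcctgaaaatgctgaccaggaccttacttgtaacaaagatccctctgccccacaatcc
Robo4: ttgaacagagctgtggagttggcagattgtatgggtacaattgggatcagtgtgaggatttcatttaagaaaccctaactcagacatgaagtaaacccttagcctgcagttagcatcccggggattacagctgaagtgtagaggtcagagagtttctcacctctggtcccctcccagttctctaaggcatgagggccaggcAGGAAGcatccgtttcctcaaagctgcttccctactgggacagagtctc
Notch1: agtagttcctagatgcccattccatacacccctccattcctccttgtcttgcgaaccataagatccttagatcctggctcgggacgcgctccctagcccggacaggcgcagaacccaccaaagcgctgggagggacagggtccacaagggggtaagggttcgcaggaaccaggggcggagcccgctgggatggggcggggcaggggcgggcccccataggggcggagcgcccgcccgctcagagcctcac
Tie1 and Robo4 each held 1 match to AGGAAG, and neither motif was found in the windows of Cldn5, Tek and Notch1. The core GGAA alone was not counted, and it occurs in the Tek and Notch1 windows on one strand or the other. Either motif occurred in 13 of the 27 promoters listed for the 23 genes (48.1%) and in 38.2% of the 32851 promoters of the whole table. No matches overlapped in the windows printed. A match describes letters and not a bound site.

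Under AngII, Balb/C wild-type ventricles had lower signals than sham ventricles for junction proteins, receptors of the angiopoietin pathway and other endothelial surface genes. They had higher signals for Notch1, Ptprb, Esm1, Cd34 and Ramp2. At an adjusted p below 0.05 in limma, 21 of 36 endothelial genes passed, 5 higher and 16 lower, where 37.2% of all 10669 genes passed (17.8% higher and 19.5% lower). The median log2 difference was -0.33 over the 36 genes and -0.06 over all genes. The ranges of the AngII and sham arrays did not overlap for 24 of the 36 genes, against 46.5% of all genes. Among the 21 genes of all endothelial cells 3 rose and 12 fell, with a median of -0.52. Among 5 measured capillary genes 1 rose and 2 fell (median -0.06), and among 9 arterial genes 1 rose and 2 fell (median -0.28). The direction of the medians depends on the scaling between arrays, as described below with the 2 normalizations. In tissue RNA, fewer endothelial cells and less RNA of a gene per cell cannot be told apart.

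**Figure D1:**
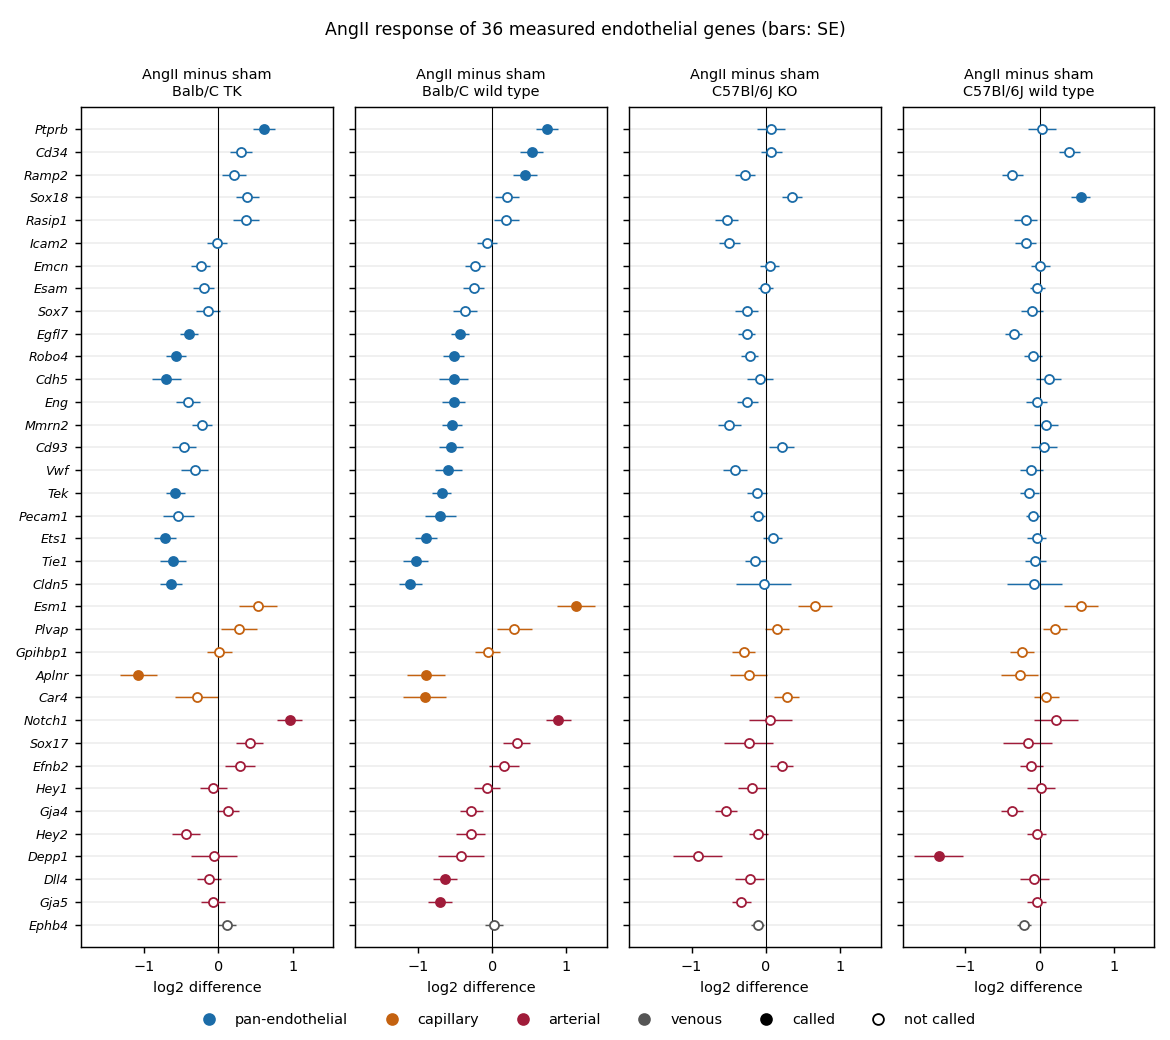
Log2 difference of AngII minus sham (horizontal axis, bars are SE) for each of 36 endothelial genes (rows, grouped by class) in Balb/C TK, Balb/C wild-type, C57Bl/6J KO and C57Bl/6J wild-type mice, 3 arrays a group; filled points passed an adjusted p below 0.05. In Balb/C 10 genes passed in TK and 21 in wild-type mice, against 0 in KO and 2 in wild-type mice of C57Bl/6J.

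Of 5 junction and adhesion genes 3 fell in Balb/C wild-type mice and 2 in TK mice. Cldn5, the tight junction claudin of the endothelium, read 9.75, 9.91 and 9.87 in wild-type AngII ventricles, against 10.97, 11.26 and 10.61 in wild-type sham ventricles (log2 signal per array). Every AngII array lay below every sham array, and the log2 difference was -1.10 ± 0.15 (SE, n = 3 each; adjusted p = 4.85e-05), a signal 2.15-fold lower. Pecam1, an adhesion molecule of endothelial and blood cells, read 7.76, 8.31 and 8.73 under AngII and 9.11, 8.79 and 9.01 in sham (-0.70 ± 0.21, adjusted p = 0.0140). Cdh5, the endothelial cadherin, read 8.51, 9.15 and 9.0 under AngII and 9.31, 9.71 and 9.19 in sham (-0.52 ± 0.20, adjusted p = 0.0496). The groups did not overlap for Pecam1 and Cdh5 either, though for Cdh5 the gap between 9.15 and 9.19 was small. Esam and Icam2, the other junction and adhesion genes measured, differed by -0.25 and -0.07 and did not pass (adjusted p = 0.162 and 0.712). Without wild-type AngII replicate 1 or sham replicate 1 the call for Pecam1 was lost (adjusted p up to 0.0754), and that for Cdh5 was lost without AngII replicate 1 or 3 or sham replicate 1 or 2 (adjusted p up to 0.217). The Cdh5 call was also lost in 5 of the 10 alternatives (the deposited values, no background correction, no filter, only the groups compared and a common median), with values from -0.80 to -0.01. The dimmer Cdh5 probe, detected on all 12 arrays, differed by -1.08 ± 0.15 in wild-type mice and -0.55 ± 0.15 in TK mice. Both values passed in a limma fit of all kept probes (adjusted p = 3.52e-05 and 0.0187).

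The receptors moved in both directions. Tie1 and Tek encode the receptor pair of the angiopoietin pathway. Tie1 read 6.23, 6.54 and 6.66 in wild-type AngII ventricles and 7.71, 7.36 and 7.46 in wild-type sham ventricles, with no overlap (-1.03 ± 0.17, adjusted p = 0.000274). Tek read 8.99, 9.04 and 9.13 under AngII and 9.64, 9.81 and 9.74 in sham, again without overlap (-0.68 ± 0.13, adjusted p = 0.00100). Ptprb, the endothelial phosphatase that acts on TEK, was higher: 9.30, 9.50 and 9.16 under AngII against 8.54, 8.56 and 8.64 in sham (0.74 ± 0.15, adjusted p = 0.00102). Its lowest AngII array lay above its highest sham array, so the phosphatase and its receptor went opposite ways on the same arrays. Eng, a co-receptor for ligands of the TGF-beta family, read 8.78, 9.40 and 8.80 under AngII and 9.45, 9.41 and 9.68 in sham (-0.52 ± 0.16, adjusted p = 0.0179). Ramp2, which with the receptor CALCRL forms the adrenomedullin receptor, read 11.59, 11.22 and 11.50 under AngII and 11.18, 11.01 and 10.83 in sham (0.44 ± 0.16, adjusted p = 0.0385). Calcrl itself was not measured here. The groups of Eng and Ramp2 were separated by gaps of under 0.05 between their nearest arrays, and both calls were lost without wild-type AngII replicate 1 or 3 or sham replicate 3, and for Ramp2 also without sham replicate 2 (adjusted p up to 0.0844 for Eng and 0.137 for Ramp2).

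Of 8 surface and secreted genes 5 fell and 1 rose, and 1 of the 5, Cd93, has no settled direction, since its probes disagree. Vwf, which encodes the von Willebrand factor of blood clotting, read 9.32, 9.44 and 9.06 in wild-type AngII ventricles and 10.09, 9.92 and 9.57 in wild-type sham ventricles (-0.59 ± 0.18, adjusted p = 0.0152). Mmrn2, an extracellular matrix protein of endothelium, read 9.74, 9.82 and 9.74 under AngII and 10.41, 10.15 and 10.34 in sham (-0.54 ± 0.13, adjusted p = 0.00392). Robo4, a guidance receptor of endothelium, read 10.11, 10.63 and 10.40 under AngII and 10.93, 10.88 and 10.87 in sham (-0.52 ± 0.14, adjusted p = 0.00812). For these 3 genes all AngII arrays were below all sham arrays. Egfl7 read 12.13, 12.25 and 12.01 under AngII and 12.66, 12.57 and 12.46 in sham (-0.43 ± 0.12, adjusted p = 0.0123). Cd34, a sialomucin of endothelial and progenitor cells, rose, with 8.93, 9.17 and 8.98 under AngII and 8.53, 8.54 and 8.41 in sham (0.53 ± 0.15, adjusted p = 0.0122). The sham arrays of Cd34 lay close together and below every AngII array. Emcn and Rasip1 differed by -0.23 and 0.19 and did not pass (adjusted p = 0.180 and 0.427). The calls for Vwf and Egfl7 were lost without AngII replicate 3 or sham replicate 1 (adjusted p up to 0.0755 and 0.0612).

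Cd93, a lectin-like receptor of endothelial and myeloid cells, gave opposite results on its 2 probes in Balb/C. The brighter probe, which was used for the gene, read 10.56, 11.05 and 10.99 in wild-type AngII ventricles and 11.48, 11.27 and 11.50 in wild-type sham ventricles (-0.55 ± 0.16, adjusted p = 0.0116). The dimmer probe differed by 0.82 ± 0.16 (adjusted p = 0.00101). The mean of both probes gave 0.14, so no direction is settled for this gene. Of 12 genes with several kept probes in Balb/C, 8 had the same sign on all of them in wild-type mice.

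Among the transcription factors Ets1 fell. It read 9.77, 10.19 and 10.25 in wild-type AngII ventricles and 10.94, 10.89 and 11.03 in wild-type sham ventricles, with no overlap (-0.89 ± 0.15, adjusted p = 0.000342). With the mean of its kept probes the difference was -0.20 and did not pass (adjusted p = 0.342). The probe used had a mean log2 signal of 10.42 and was detected on all 12 arrays. Its other kept probes were close to background, with means of 4.78 (7 of 12 arrays) and 4.98 (8 of 12), so the mean of probes says little about Ets1. Sox7 and Sox18, factors that act redundantly in vessel development, differed by -0.37 and 0.20 (adjusted p = 0.0771 and 0.348).

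Capillary genes did not move as a block. Car4, the carbonic anhydrase on the surface of capillary endothelium, read 6.59, 5.76 and 5.97 in wild-type AngII ventricles and 6.59, 7.59 and 6.88 in wild-type sham ventricles (-0.91 ± 0.29, adjusted p = 0.0199). Its highest AngII array reached its lowest sham array, so the groups were not separated, and the call was lost without AngII replicate 2 or 3 or sham replicate 2 (adjusted p up to 0.115). It was also lost with the deposited values, without background correction, without a filter and under a common median (-0.91 to -0.44 over the alternatives, adjusted p up to 0.298). Aplnr, the receptor of apelin, read 7.46, 8.19 and 7.97 under AngII and 8.40, 8.71 and 9.18 in sham (-0.89 ± 0.25, adjusted p = 0.0118). The arrays did not overlap, and the call was lost without AngII replicate 1 or sham replicate 3 (adjusted p up to 0.0627). Esm1, a secreted proteoglycan known as a marker of sprouting endothelial cells, rose, with 5.77, 6.07 and 6.29 under AngII and 4.85, 4.50 and 5.40 in sham (1.13 ± 0.26, adjusted p = 0.00286). It was detected on all 3 AngII arrays and on 2 of 3 sham arrays, close to background, and the size of its difference depended on the processing, from 0.41 without background correction to 1.43 under a common median, with the call kept. Gpihbp1, which anchors lipoprotein lipase in capillaries and was the brightest gene of the class, read 10.36, 9.99 and 10.16 under AngII and 10.16, 10.51 and 10.02 in sham, so that its groups overlapped (-0.06 ± 0.17, adjusted p = 0.817). Plvap, which forms the diaphragms of fenestrated capillaries, differed by 0.30 (adjusted p = 0.346).

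Of the arterial genes, the Notch receptor and its ligand went opposite ways. Notch1 read 8.87, 8.83 and 8.63 in wild-type AngII ventricles and 7.68, 8.10 and 7.89 in wild-type sham ventricles, without overlap (0.89 ± 0.17, adjusted p = 0.000655), a signal 1.85-fold higher. Dll4 read 5.47, 5.32 and 5.24 under AngII and 6.26, 6.08 and 5.60 in sham, also without overlap (-0.63 ± 0.16, adjusted p = 0.00505). Notch1 is also expressed outside the endothelium. Gja5, the gap junction protein connexin of arterial endothelium and conduction fibres, read 6.38, 6.09 and 5.83 under AngII and 6.80, 6.76 and 6.83 in sham (-0.70 ± 0.16, adjusted p = 0.00331). The other 6 arterial genes did not pass on the probes used and ranged from -0.42 to 0.33. The highest was Sox17, with 0.33 on its brighter probe in wild-type mice and 0.42 in TK mice. Its dimmer probe, detected on all 12 arrays, differed by 0.98 ± 0.17 in wild-type and 1.24 ± 0.17 in TK mice. Both passed in a limma fit of all kept probes (adjusted p = 0.000294 and 0.000131). The size of the Sox17 response is therefore not settled. Depp1, the brightest of the class in Balb/C, read 9.34, 8.38 and 9.02 under AngII and 9.86, 9.56 and 8.59 in sham (-0.42 ± 0.31, adjusted p = 0.306). Hey1, a Notch target and the second brightest of the class, read 9.29, 8.85 and 8.74 under AngII and 9.02, 8.83 and 9.24 in sham (-0.07 ± 0.18, adjusted p = 0.795). Ephb4, the venous receptor for ephrin-B2, read 10.11, 10.24 and 10.03 under AngII and 10.05, 10.21 and 10.06 in sham (0.02 ± 0.12, adjusted p = 0.916). The arrays of Depp1, Hey1 and Ephb4 overlapped.

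**Figure D2:**
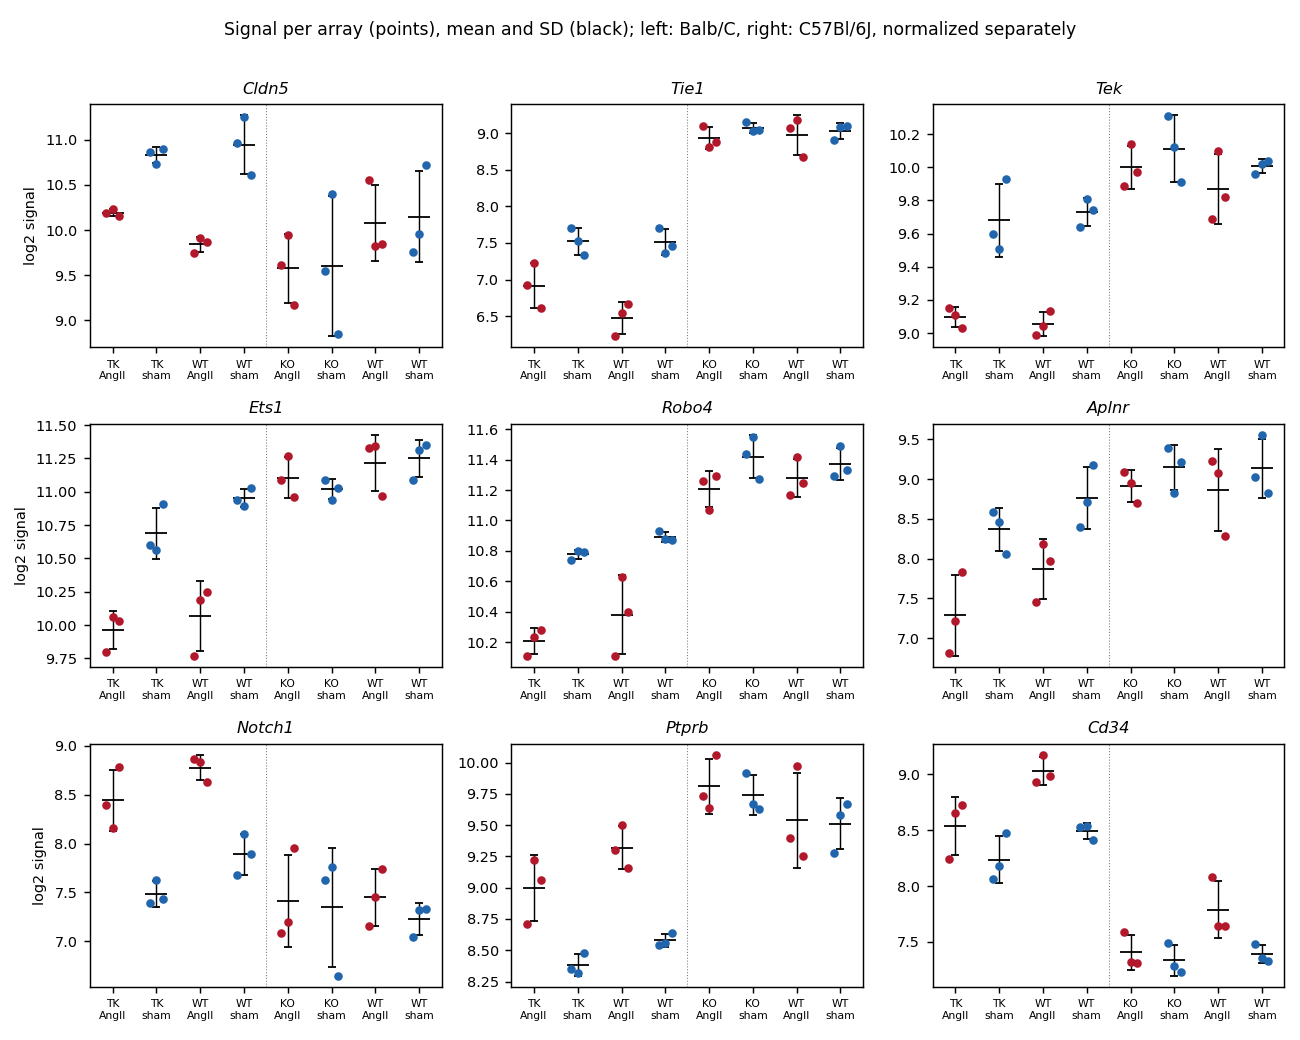
Log2 signal on each array (points; red AngII, blue sham) with group mean and SD (black, n = 3) for 9 endothelial genes, with Balb/C groups left of the dotted line and C57Bl/6J groups right of it. In Balb/C all AngII points lay below the sham points of the same genotype for Cldn5, Tie1, Tek, Ets1, Robo4 and Aplnr and above them for Notch1 and Ptprb.

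In Balb/C TK mice 10 of the 36 genes passed, 2 higher and 8 lower, where 13.4% of all genes passed (7.40% higher and 6.01% lower). The median over the 36 genes was -0.14, against -0.05 over all genes, and the arrays did not overlap for 17 genes, against 34.8% of all genes. All 10 were among the 21 genes called in wild-type mice, with the same direction. By class, 1 pan-endothelial gene rose and 7 fell (median -0.32), 1 capillary gene fell (median 0.01) and 1 arterial gene rose (median -0.06).

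Cldn5 read 10.19, 10.23 and 10.16 in TK AngII ventricles and 10.87, 10.73 and 10.90 in TK sham ventricles (-0.64 ± 0.15, adjusted p = 0.0105). Cdh5 read 8.43, 8.82 and 8.83 under AngII and 9.24, 9.23 and 9.73 in sham (-0.70 ± 0.20, adjusted p = 0.0277). In both junction genes every AngII array was below every sham array. Tie1 read 6.92, 7.22 and 6.61 under AngII and 7.71, 7.52 and 7.33 in sham (-0.61 ± 0.17, adjusted p = 0.0302). Tek read 9.15, 9.11 and 9.03 under AngII and 9.60, 9.51 and 9.93 in sham (-0.58 ± 0.13, adjusted p = 0.00959). Both receptors were separated, and the phosphatase gene Ptprb was higher as in wild-type mice, with 8.71, 9.22 and 9.06 under AngII and 8.35, 8.32 and 8.48 in sham (0.61 ± 0.15, adjusted p = 0.0117). The call for Cdh5 was lost without TK AngII replicate 1 or 3 or TK sham replicate 3, that for Tie1 without AngII replicate 1 or 3 or sham replicate 1 or 2, that for Tek without sham replicate 3 and that for Ptprb without AngII replicate 2 or 3 (adjusted p up to 0.135, 0.150, 0.0522 and 0.0580).

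Robo4 read 10.11, 10.23 and 10.28 in TK AngII ventricles and 10.74, 10.80 and 10.79 in TK sham ventricles, without overlap (-0.57 ± 0.14, adjusted p = 0.0128). Egfl7 read 12.07, 12.09 and 12.06 under AngII and 12.54, 12.52 and 12.36 in sham (-0.40 ± 0.12, adjusted p = 0.0427). The Egfl7 groups did not overlap, but its call was lost on leaving out any 1 of the 6 arrays (adjusted p up to 0.120). Ets1 read 9.80, 10.06 and 10.03 under AngII and 10.60, 10.56 and 10.91 in sham (-0.72 ± 0.15, adjusted p = 0.00562). As in wild-type mice, the mean of the Ets1 probes gave a smaller difference that did not pass (-0.34, adjusted p = 0.179). Aplnr had the lowest value of the list in TK mice. It read 6.82, 7.22 and 7.83 under AngII and 8.58, 8.46 and 8.06 in sham (-1.08 ± 0.25, adjusted p = 0.0109), and without AngII replicate 1 the adjusted p was 0.0503. Notch1 read 8.39, 8.16 and 8.78 under AngII and 7.39, 7.63 and 7.43 in sham, and its lowest AngII array was above its highest sham array (0.96 ± 0.17, adjusted p = 0.00132).

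The 11 genes called in wild-type and not in TK mice of Balb/C were Car4, Cd34, Cd93, Dll4, Eng, Esm1, Gja5, Mmrn2, Pecam1, Ramp2 and Vwf. The difference of the 2 AngII responses was tested directly. For none of the 36 genes did it pass, 3 had an unadjusted p below 0.05, and 2.11% of all genes passed (0.572% higher and 1.54% lower). Response differences (TK minus wild type) ranged from -0.60 to 0.63 over the 36 genes, with a median of 0.09 against 0.01 over all genes. The 2 genotypes are not shown to differ in the response of any of these genes.

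Under AngII, TK ventricles had higher signals than wild-type ventricles for 2 of the 36 genes and lower signals for 0, where 10.7% of all genes passed (3.95% higher and 6.80% lower). Car4 read 7.15, 7.61 and 6.46 in TK AngII ventricles and 6.59, 5.76 and 5.97 in wild-type AngII ventricles, which overlapped (0.97 ± 0.29, adjusted p = 0.0403). Gja5 read 6.92, 6.71 and 6.77 in TK AngII and 6.38, 6.09 and 5.83 in wild-type AngII ventricles, which did not overlap (0.70 ± 0.16, adjusted p = 0.0109), a signal 1.62-fold higher. These are the arrays in which both genes were lower than sham in wild-type mice, so the 2 comparisons share the wild-type AngII arrays. In TK mice Car4 differed from sham by -0.29 and Gja5 by -0.07 (adjusted p = 0.549 and 0.829). Leaving out TK AngII replicate 1 ended both calls, wild-type AngII replicate 3 did so too, and TK AngII replicate 2 or wild-type AngII replicate 2 ended that of Car4 (adjusted p up to 0.199 for Car4 and 0.0680 for Gja5). Car4 also failed to pass with the authors' deposited values, without background correction, without a filter, with an offset of 50, with only the groups compared and under a common median (0.53 to 0.97 over all alternatives, adjusted p up to 0.158). Under the common median the Gja5 call was lost too (0.36, adjusted p = 0.174), and 0 of the 36 genes were higher and 8 lower. The count of genes called ranged from 0 to 7 over the arrays left out. The arrays of the genotypes did not overlap for 6 of the 36 genes, against 29.2% of all genes, and the median over the 36 genes was -0.05 against 0.00 over all genes.

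Without AngII the Balb/C genotypes did not differ at any of the 36 genes in limma. At an unadjusted p below 0.05 there were 5 of 36 genes and 1136 of all 10669 genes, 0 of which passed after adjustment, and the median over the 36 genes was -0.11. The arrays did not overlap for 9 of the 36 genes, against 16.7% of all genes.

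**Figure D3:**
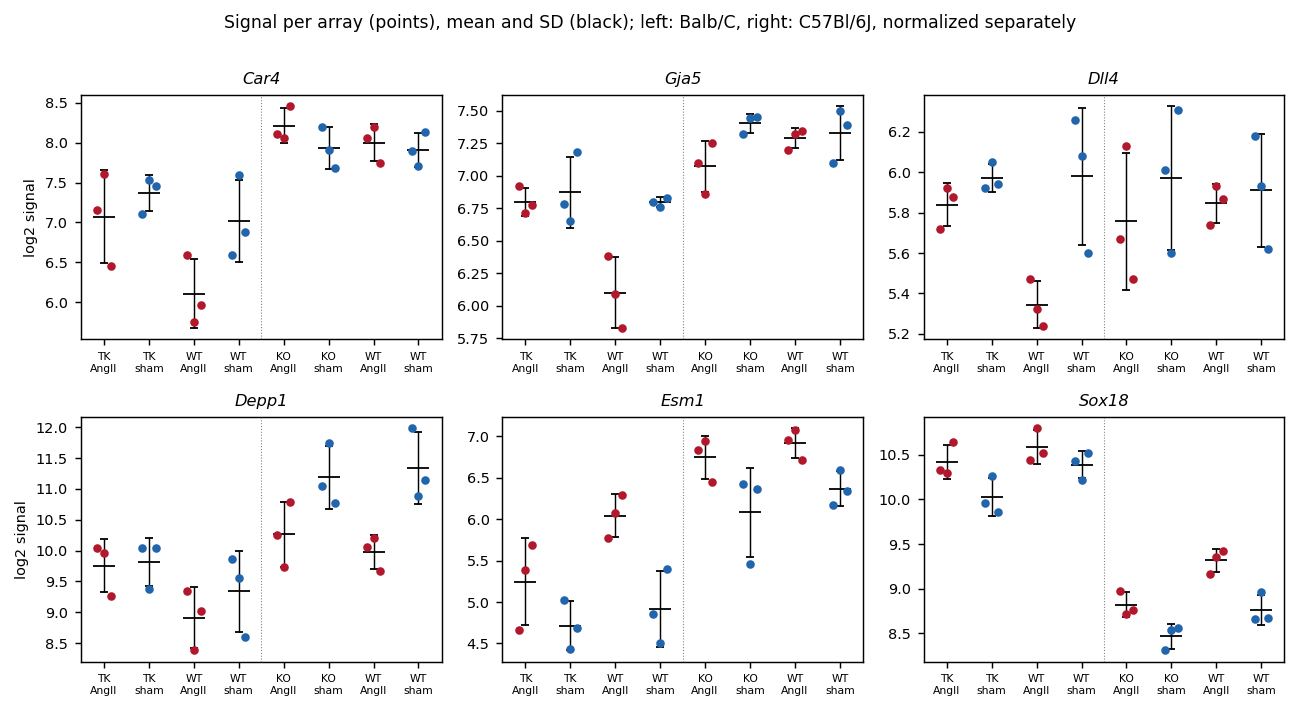
Log2 signal on each array (points; red AngII, blue sham) with group mean and SD (black, n = 3) for 6 genes named in the genotype and C57Bl/6J comparisons, with Balb/C groups left of the dotted line and C57Bl/6J groups right of it. For Gja5 the TK AngII points sat between 6.71 and 6.92, above the wild-type AngII points at 5.83 to 6.38.

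In C57Bl/6J the counts of endothelial genes called were near the shares of all genes called. In KO mice 0 of 36 genes passed in limma on the probes used, where 3.72% of all genes did (2.04% higher and 1.67% lower), and 10 had an unadjusted p below 0.05. The median was -0.13 over the 36 genes and -0.02 over all genes. In a limma fit of all kept probes, a dimmer probe of Gpihbp1 passed as lower (-0.58 ± 0.13, adjusted p = 0.0336). That probe was the one used for Gpihbp1 in Balb/C. A dimmer probe of Cd93 passed as higher (0.60 ± 0.14, adjusted p = 0.0442). The probes used for these genes differed by -0.30 and 0.21 and did not pass. With the authors' deposited values, without background correction or with an offset of 50, Gja4, Icam2 and Rasip1 passed as lower, with log2 differences between -0.50 and -0.42. Gja4 encodes an arterial connexin, Icam2 an adhesion molecule and Rasip1 a regulator of vessel lumen formation, and these names were picked after their values were seen. In wild-type mice 2 of 36 genes passed, where 7.90% of all genes did (3.66% higher and 4.24% lower), with a median of -0.06 against -0.02 over all genes. The arrays did not overlap for 11 genes in KO and 6 genes in wild-type mice, against 26.7% and 29.2% of all genes.

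Depp1, a FOXO-regulated gene with high expression in arterial endothelium, read 10.06, 10.21 and 9.67 in C57Bl/6J wild-type AngII ventricles and 11.99, 10.88 and 11.14 in wild-type sham ventricles (-1.36 ± 0.33, adjusted p = 0.0248). In KO mice it read 10.26, 9.74 and 10.79 under AngII and 11.04, 11.75 and 10.77 in sham (-0.92 ± 0.33, adjusted p = 0.126). Only the wild-type groups were free of overlap. Sox18 read 9.17, 9.36 and 9.42 in wild-type AngII and 8.66, 8.96 and 8.67 in wild-type sham ventricles (0.55 ± 0.13, adjusted p = 0.0189). In KO mice it read 8.98, 8.72 and 8.76 under AngII and 8.31, 8.54 and 8.56 in sham (0.35 ± 0.13, adjusted p = 0.133). For Sox18 the AngII arrays lay above the sham arrays in both genotypes. Both calls rested on few arrays: that of Depp1 was lost in 5 of the 6 fits without 1 array, the exception being wild-type sham replicate 2, and that of Sox18 in 4 of 6, the exceptions being AngII replicate 1 and sham replicate 2 (adjusted p up to 0.0931 and 0.0723).

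The C57Bl/6J genotypes did not differ at any of the 36 genes, neither under AngII, where 0.166% of all genes passed in limma (0.0555% higher and 0.111% lower), nor in sham, where 0 did. Unadjusted p-values below 0.05 were found for 3 and 1 of the 36 genes, against 1047 and 718 of all genes. The arrays of the genotypes did not overlap for 5 of the 36 genes under AngII and 2 in sham, against 14.8% and 10.9% of all genes. Medians over the 36 genes were -0.07 under AngII and 0.00 in sham. The difference of the AngII responses (KO minus wild type) passed for 0 of 36 genes, with 1 at an unadjusted p below 0.05, against 0.0555% of all genes (0.0185% higher and 0.037% lower).

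The strain difference of the AngII response was tested in a joint fit of all 24 arrays over 9921 genes. In wild-type mice 6 of 36 genes passed, 2 higher and 4 lower in Balb/C relative to C57Bl/6J, against 15.6% of all genes (8.46% higher and 7.10% lower). Tie1 had the lowest of the 4 negative values, with a response -0.98 ± 0.23 apart (adjusted p = 0.00590), followed by Ets1 with -0.86 ± 0.20 (adjusted p = 0.00592), Mmrn2 with -0.62 ± 0.20 (adjusted p = 0.0398) and Tek with -0.53 ± 0.18 (adjusted p = 0.0488). Ramp2 and Ptprb had the higher responses, with 0.82 ± 0.22 (adjusted p = 0.0133) and 0.70 ± 0.24 (adjusted p = 0.0499). In the C57Bl/6J fit of wild-type mice these genes differed between AngII and sham by -0.06 for Tie1, -0.04 for Ets1, 0.09 for Mmrn2, -0.14 for Tek, -0.37 for Ramp2 and 0.03 for Ptprb, and none passed. Cldn5, which had the lowest value in Balb/C wild-type mice, did not pass here (-1.05, adjusted p = 0.0852), and its arrays within a C57Bl/6J group spread widely, from 8.85 to 10.40 in KO sham ventricles. In Bmx-deficient mice 1 of 36 genes passed, against 1.39% of all genes (0.887% higher and 0.504% lower), and that gene was Ets1 (-0.81 ± 0.20, adjusted p = 0.0433). The calls for Ets1, Ramp2 and Tie1 in wild-type mice held without each array in turn. Under scaling to a common median all 4 lower calls were lost (Tie1 -0.43, Ets1 -0.29, Mmrn2 -0.06 and Tek -0.01, adjusted p from 0.226 to 0.985), Ramp2 and Ptprb stayed higher (1.30 and 1.23), and 8 genes were higher and 0 lower. Those for Mmrn2, Ptprb and Tek were lost in 8, 10 and 11 of 12 such fits, and that for Ets1 in deficient mice in 9 of 12 (adjusted p up to 0.117, 0.132, 0.135 and 0.129). Strain and array table coincide, and what part of the difference belongs to either cannot be told apart.

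**Figure D4:**
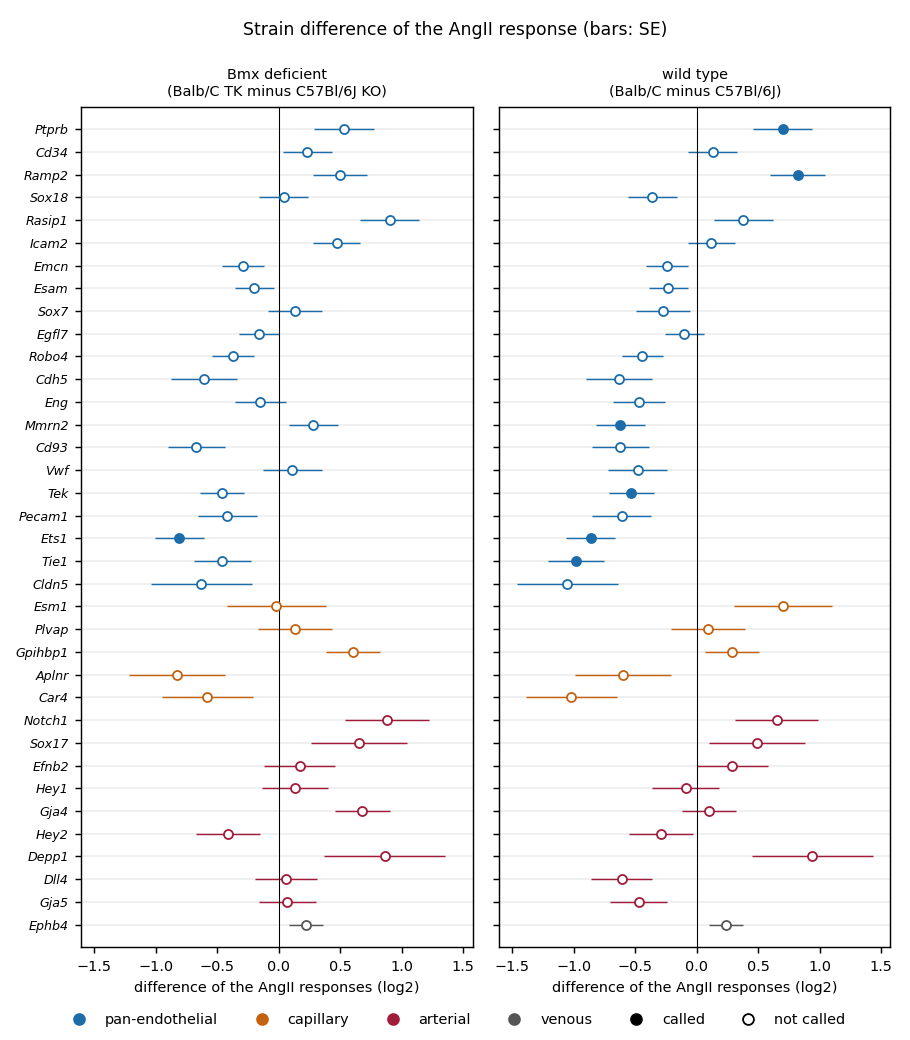
Difference of the AngII responses between strains (horizontal axis, log2, Balb/C minus C57Bl/6J, bars are SE) for 36 endothelial genes in Bmx-deficient mice (left) and wild-type mice (right) from the joint fit of 24 arrays; filled points passed. In wild-type mice Ramp2 and Ptprb lay above 0 and Tie1, Ets1, Mmrn2 and Tek below it, and in deficient mice Ets1 lay at -0.81.

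The scaling between arrays moved all Balb/C wild-type values. Quantile normalization left the median log2 difference of all genes at -0.06, whereas scaling every array to a common median placed it at 0.32, with 3804 genes higher and 285 lower (93.0% of calls higher) against 1895 higher and 2077 lower (47.7%) under quantile normalization. On the scaled values 10 of the 36 endothelial genes were called higher and 2 lower, and their median was 0.12, so that the sign of the median turned. Relative to all genes the endothelial median was -0.27 under quantile normalization and -0.20 under the common median. The side of the all-gene median on which a gene lay was the same under both for 32 of 36 genes, with 25 and 23 below it. The 2 genes still called lower were Cldn5 (-0.58, adjusted p = 0.0149) and Tie1 (-0.52, adjusted p = 0.0387). Notch1, Esm1, Ptprb, Cd34 and Ramp2 were called higher under both. The other genes called lower above were lower in the sense of quantile normalization, that is, relative to the bulk of the genes. In TK mice the common median left 1 endothelial gene higher and 2 lower, Notch1, Aplnr and Ets1, with 81.3% of all calls higher against 55.2% under quantile normalization. Between the genotypes under AngII it placed the median of all genes at -0.26, with 4.92% of calls higher against 36.7%, and called 8 endothelial genes lower and 0 higher in TK ventricles.

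**Figure D5:**
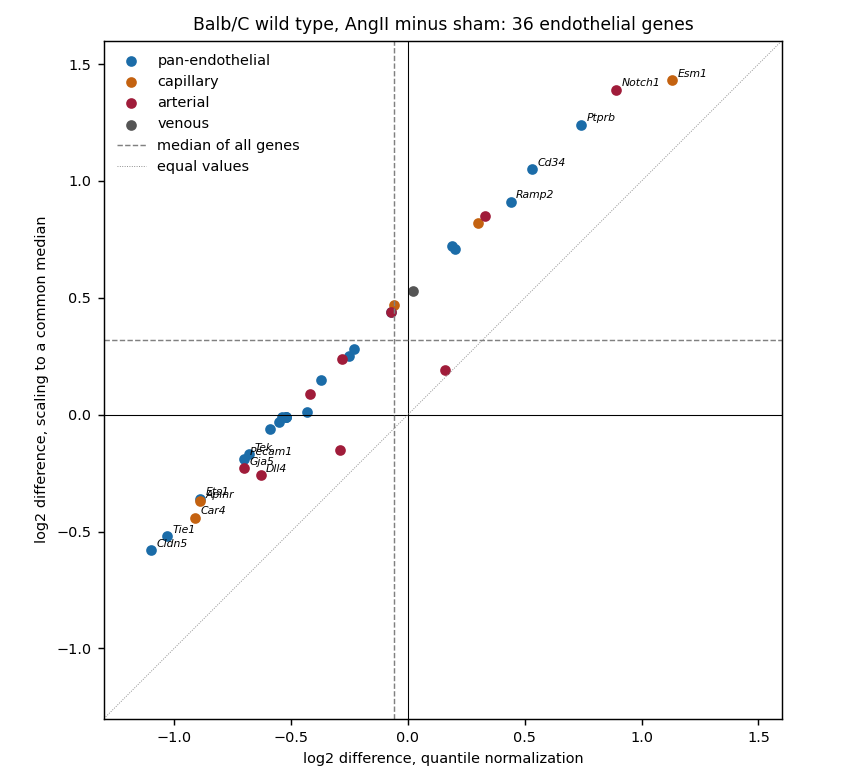
Log2 difference of AngII minus sham in Balb/C wild-type mice for 36 endothelial genes under quantile normalization (horizontal axis) and under scaling to a common median (vertical axis), with dashed lines at the median of all genes and a dotted line of equal values. All 36 points lie above the dotted line, and Cldn5 and Tie1 are the lowest on both axes.

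Ligands and partners of the 36 genes were counted next (22 genes listed, 17 measured in Balb/C and 18 in C57Bl/6J). In Balb/C wild-type mice 2 of 17 rose and 4 fell under AngII (median -0.10), a share near the 37.2% of all genes called there. Angpt2, the TEK ligand released by endothelium, fell (-0.69 ± 0.14, adjusted p = 0.000977), as did the Notch ligand Jag2 (-0.54 ± 0.19, adjusted p = 0.0296). Heyl, a further Notch target, rose (0.92 ± 0.20, adjusted p = 0.00190), and so did Sphk1, a kinase that makes the lipid signal read by S1PR receptors (1.63 ± 0.21, adjusted p = 2.85e-05). In TK mice 1 of 17 fell and 0 rose (median -0.11), where 13.4% of all genes passed. The 1 was Angptl4, a lipoprotein lipase inhibitor (-1.38 ± 0.41, adjusted p = 0.0357). Under AngII, TK ventricles had higher Angpt2 (0.92 ± 0.14, adjusted p = 0.000431) and Ramp1 (1.18 ± 0.19, adjusted p = 0.000927) and lower Sphk1 (-1.12 ± 0.21, adjusted p = 0.00267) than wild-type ventricles. These were 2 higher and 1 lower of 17, where 10.7% of all genes passed. This comparison shares the wild-type AngII arrays, in which Ramp1 was called lower than sham (-0.50 ± 0.19, adjusted p = 0.0481). The difference of the AngII responses (TK minus wild type) did not pass for Angpt2 (0.67, adjusted p = 0.089), Ramp1 (0.82, adjusted p = 0.141) or Sphk1 (-1.12, adjusted p = 0.0643). In C57Bl/6J only Sphk1 passed in this list, with 0.65 ± 0.14 in KO mice (adjusted p = 0.0333) and 0.61 ± 0.14 in wild-type mice (adjusted p = 0.0223). Of all genes 3.72% passed in KO and 7.9% in wild-type mice.

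A further list of endothelial genes outside the 42 (26 genes, 22 measured in Balb/C) had 7 lower and 2 higher in wild-type mice under AngII, with a median of -0.30, again near the share of all genes called (37.2%, with 17.8% higher and 19.5% lower). Arhgef15 fell by 1.05 ± 0.16 on the log2 scale (adjusted p = 0.000105), and Nrp1, a co-receptor for VEGF, fell by 0.77 ± 0.12 (adjusted p = 0.000176). Bcl6b, a transcriptional repressor of endothelium, fell by 0.79 ± 0.16 (adjusted p = 0.00134). Thbd, the thrombin receptor thrombomodulin, rose (1.47 ± 0.20, adjusted p = 4.35e-05). In TK mice 4 fell and 1 rose of 22 (median -0.15), where 13.4% of all genes passed. Thbd rose by 1.53 ± 0.20 (adjusted p = 0.000188). Nrp1, Arhgef15 and Fli1, an ETS factor, were among those that fell (-0.50, -0.57 and -0.51, adjusted p = 0.0135, 0.0247 and 0.0280). In C57Bl/6J 21 genes of this list were measured, and Thbd in KO mice was the 1 call (1.14 ± 0.25, adjusted p = 0.0335). There 3.72% of all genes passed in KO and 7.9% in wild-type mice.

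Markers of other cells moved in the same Balb/C comparison. Under AngII 17.8% of all genes were called higher and 19.5% lower in wild-type mice, and 7.4% and 6.01% in TK mice. Between the Balb/C genotypes under AngII 3.95% were higher and 6.8% lower in TK ventricles. For AngII in C57Bl/6J the shares were 3.66% higher and 4.24% lower in wild-type mice, and 2.04% and 1.67% in KO mice. In wild-type mice all 7 measured macrophage genes were higher under AngII (median 1.38) and 6 of 7 fibroblast genes were (median 1.12), with macrophage genes summing to 2800 to 3710 in AngII and 1180 to 1890 in sham ventricles (linear signal) and fibroblast genes to 22800 to 28900 and 13300 to 15400. Of the vessel wall genes, 3 of 8 pericyte genes passed as lower (sums of 2520 to 2960 in AngII and 4260 to 4650 in sham). Smooth muscle genes passed as lower for 4 of 6 (9700 to 10400 and 19500 to 21900). In each of these 2 lists 1 gene had a positive difference that did not pass. In TK mice 3 of 7 macrophage genes and 2 of 7 fibroblast genes were higher and 2 of 8 pericyte genes lower, while 0 of 6 smooth muscle genes passed. Pericyte genes summed to 3350 to 3420 in TK AngII and 4320 to 5360 in TK sham ventricles. Between the genotypes under AngII, 3 pericyte and 2 smooth muscle genes were higher and 4 fibroblast genes and 1 macrophage gene lower in TK ventricles, beside the higher Car4 and Gja5. Other lists were mixed there. Of 7 measured venous or activated endothelial genes 1 was higher and 2 lower, of 7 lymphatic genes 1 was higher and 1 lower, and 1 of 6 cardiomyocyte genes was higher. Of 7 lymphatic genes 2 rose and 1 fell in wild-type mice, and of 7 measured venous or activated endothelial genes 1 rose and 2 fell. Cardiomyocyte genes passed as higher for 2 of 6 genes in either genotype, red cell genes for 0 of 3 in wild-type and 2 of 3 in TK mice, and 1 gene each was measured for adipocytes and lymphocytes. In C57Bl/6J, 2 of 7 macrophage and 3 of 7 fibroblast genes were higher in wild-type mice and 3 and 2 in KO mice, with 0 of 8 pericyte genes passing in either. Of 7 lymphatic endothelial genes 3 were higher under AngII in wild-type mice, Mmrn1 (1.99, adjusted p = 2.48e-05), Pdpn (0.86, adjusted p = 0.00478) and Lyve1 (1.09, adjusted p = 0.0328), and 0 passed in KO mice. The other 4 had negative differences in wild-type mice that did not pass (Prox1 -0.32, Ccl21a -0.18, Reln -0.16 and Flt4 -0.08). The median over the 7 genes there was -0.08, so the list did not rise as a block. Mmrn1 was lower in KO than in wild-type ventricles under AngII (-2.13, adjusted p = 2.54e-05). Between AngII and sham it differed by 0.05 in KO mice (adjusted p = 0.892), and between the sham genotypes by -0.18 (adjusted p = 0.89). Mmrn1 thus set the 3 wild-type AngII arrays apart, as Wdfy1 and Plac9a did. Whether AngII or another trait of those 3 arrays lay behind its values was not tested. Of 3 red cell genes 1 was higher in KO mice, Slc4a1 (1.91, adjusted p = 0.0260), and 2 in wild-type mice, Slc4a1 (3.12, adjusted p = 0.000987) and Alas2 (1.72, adjusted p = 0.0274). What part these cells had in the endothelial values was not tested.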

How the data were processed

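Left ventricle RNA was amplified, biotin-labelled and hybridised to Illumina arrays, per the labels' protocols. The authors deposited 1 table of linear probe intensity for each strain, not normalized per the file headers, with a detection p-value for each probe and array. For Balb/C, 313 of the deposited p-value cells, on 11 arrays, had lost their decimal point and were read as 1. The authors also deposited log2 values for all arrays, which by their quartiles were quantile-normalized within each strain, and these served as an alternative. Scanner software and background handling are not given in the sources used here. Groups were taken from the sample titles.

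Each strain was normalized separately with neqc in limma 3.58.1 (R 4.3.3): the background was estimated through the detection p-values, 16 was added as an offset, and signals were quantile-normalized and log2-transformed. Probes entered with detection p under 0.05 on 3 or more of a strain's 12 arrays (19783 probes in Balb/C and 20319 in C57Bl/6J), and a gene took its brightest kept probe (10669 and 10816 genes). Genes were named from the platform's annotation, in which 34885 probes had 1 symbol, 18 several and 10378 none. The 4 group means of a strain were fitted with 8 residual degrees of freedom, followed by eBayes and Benjamini-Hochberg adjustment over all genes, with calls at an adjusted p below 0.05. The strain difference of the responses came from a joint normalization and fit of 24 arrays (16 residual degrees of freedom, 9921 genes). The number of arrays limits the precision. The fit was tested on simulated data. The replicate numbers did not pair the arrays.

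The members and gene lists were chosen with earlier results of these data known, so no p-value over a list is given. Every gene called in at least 1 comparison is named, together with the 2 brightest genes of each class; of the other lists, at most 4 passing genes a comparison, by smallest p. The alternatives were scaling to a common median, an offset of 50, leaving out the background correction, no filter, a detection p below 0.01, the mean of kept probes, only the groups compared, the replicate number as a block, the deposited log2 values, a trended prior, and each array left out in turn.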

Additional observations from a re-analysis of the deposited data

Results flagged for a closer look

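In the joint fit the AngII response differed between Balb/C and C57Bl/6J wild-type mice for 6 endothelial genes, each by a test of the difference itself. That is 6 of 36 genes, near the 15.6% of all genes called. The values (log2, Balb/C response minus C57Bl/6J response) were 0.82 for Ramp2, 0.70 for Ptprb, -0.53 for Tek, -0.62 for Mmrn2, -0.86 for Ets1 and -0.98 for Tie1. Under scaling to a common median the 4 negative calls were lost, with 8 genes higher and 0 lower, and without 1 array in turn the calls for Mmrn2, Ptprb and Tek were lost in 8, 10 and 11 of 12 fits. In Bmx-deficient mice the difference passed for Ets1, with -0.81, against 1.39% of all genes, and was lost in 9 of 12 such fits. Strain and array table cannot be told apart.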

How the results depend on the processing

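Over the 42 calls named, 357 of the values under the alternatives kept their call, 61 lost it and 2 reversed. The reversals were Cd93 in Balb/C wild-type mice with the mean of its kept probes (0.14) and Egfl7 there under scaling to a common median (0.01). Of the values without 1 array, 201 kept the call and 93 lost it. Numbers of endothelial genes called moved by over 1.5 times as follows, and the cause was not tested. Scaling to a common median gave 12 in place of 21 in Balb/C wild-type mice, 3 in place of 10 in TK mice, 8 in place of 2 between TK and wild type under AngII, 1 in place of 2 in C57Bl/6J wild-type mice and 0 in place of 1 for the strain difference in deficient mice. Between TK and wild type under AngII there were 4 with a detection p below 0.01 or with the mean of probes (3 higher and 1 lower in each). There were also 4 with the replicate number as a block (2 higher and 2 lower), and 1 without a filter. For the strain difference in wild-type mice there were 3 without a filter or with only the groups compared, in place of 6. In deficient mice there were 2 with the deposited values, a detection p below 0.01, no background correction, an offset of 50 or a trended prior, and 0 without a filter. In C57Bl/6J KO mice there were 3 with the deposited values, no background correction or an offset of 50, and 4 with a trended prior, in place of 0.

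Without each array in turn the numbers were 15 to 20 for AngII in Balb/C wild-type mice, 6 to 8 in TK mice, 0 to 2 in C57Bl/6J wild-type mice, 0 to 7 between TK and wild type under AngII, 3 to 7 for the strain difference in wild-type mice and 0 to 1 in deficient mice. The median over the 36 genes in Balb/C wild-type mice lay between -0.37 and 0.12 under the alternatives and between -0.42 and -0.30 without 1 array.

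Arrays with the same replicate number did not deviate together (correlations of -0.16 to 0.19). With the replicate number as a block, 21 genes were called in Balb/C wild-type mice, 9 in TK mice, 4 between TK and wild type under AngII, 3 in C57Bl/6J wild-type mice, and 4 and 1 for the strain differences in wild-type and deficient mice.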
